A study of Rattus norvegicus with 10 samples.

Results

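Peptide hormones and neuropeptides act on a cell through receptor proteins in its membrane, and the transcripts of 50 such receptors were followed in the supraoptic nucleus after knock-down of Opn3, which encodes the light-sensitive receptor opsin 3. The 50 genes had been listed by name, and a gene was included when the deposited table held a row of exactly that name. By this rule 48 were found among 32623 genes, while Galr2 and Vipr1 were not analysed here. Among the 48, 42 had a mean of at least 10 normalized counts over the 10 libraries and were tested together with all other genes above that level (15597 genes). A normalized count is the number of reads of a gene divided by a size factor for its library, and it is not corrected for gene length, so levels are compared between libraries and not between genes.

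The tissue was the hypothalamic supraoptic nucleus taken from male rats of the outbred Sprague-Dawley stock, and no label gave the age of the animals. Each rat carried an adeno-associated virus that expressed a short hairpin RNA targeting Opn3 in one nucleus and one with a hairpin of no target in the opposite nucleus. All 10 nuclei had thus received a virus. The nuclei were punched out 2 weeks later and extracted singly, which gave 5 shControl and 5 shOpn3 libraries numbered 1 to 5 in each group. No label stated the promoter of the hairpin, the cells that took up the virus, or which side received which hairpin.

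The supraoptic nucleus contains magnocellular neurons that make vasopressin or oxytocin and release it into the blood from the posterior pituitary. Their firing is set by osmotic signals and by synaptic input, and many peptides modify it through receptors on the neurons themselves or on their afferents. Most peptide receptors span the membrane 7 times and act through a G protein of the Gs, Gi or Gq class, which raises cyclic AMP, lowers it, or mobilises calcium. Receptors for prolactin, leptin and insulin instead cross the membrane once and signal through tyrosine phosphorylation.

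The libraries held 33158341 to 39958578 reads and a difference in depth between the groups did not pass (exact two-sided permutation test, p = 0.492). Opn3 itself ranged over 261 to 1007 normalized counts in the shControl libraries and 145 to 289.7 in shOpn3. All 5 same-numbered pairs had less of it in shOpn3 (log2 difference -1.82 with SE 0.320, limma adjusted p = 0.00226), although shControl replicate 5 (261) lay below shOpn3 replicate 1 (289.7). Cell type markers moved as well, and the counts that follow stand beside 10.4% of all genes higher and 8.48% lower. Of 14 microglial genes 13 rose and 0 fell (summed level 17515 to 21326 in shControl and 29109 to 57171 in shOpn3), and of 12 oligodendrocyte genes 12 fell (748369.8 to 1273849 and 256336 to 482981). Of 12 neuronal genes 1 rose (Rbfox3, log2 fold change 0.62) and 2 fell (Elavl4, -0.57, and Uchl1, -0.49), while the values of those not called lay on both sides of 0 (summed level 161248 to 226305 and 154965 to 266913). Among 12 astrocyte genes 4 rose and 1 fell (348360.3 to 456822 and 394074 to 539158), among 8 endothelial genes limma called 0, and 1 with the replicate block (20886 to 23512 and 18441 to 27421), and among 12 genes of striatal and amygdalar neurons 4 rose and 2 fell (9713 to 11874 and 10375 to 13296). No gene of these lists was at 0 in all libraries. The part of these shifts in the receptor results was not tested, and in a bulk sample fewer cells of a type and less RNA per cell cannot be told apart.

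Receptor transcripts changed in both directions. In shOpn3 nuclei 7 receptors were lower, namely Tacr3, Nmur2, Rxfp1, Oprk1, Rxfp3, Agtr1a and Prlr, and 8 were higher, namely Agtr2, Npy2r, Crhr1, Kiss1r, Npy5r, Sstr3, Npy1r and Sstr1 (limma, adjusted p under 0.05 over all 15597 genes). The 15 called receptors were 35.7% of the 42 tested, beside 18.8% of all genes tested. Higher receptors were 19.0% of the tested ones, beside 10.4% of all genes, and lower ones 16.7%, beside 8.48%. The median log2 fold change over the 42 receptors was 0.05, and over all genes tested it was -0.02.

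Of the 7 lower receptors 3 changed by at least 1 on the log2 scale (Tacr3, Nmur2 and Rxfp1), and of the 8 higher ones only Agtr2 did. Among the 15 called receptors 11 had groups without overlap, but calling itself selects for such a difference, so this count adds no support. Over all 42 tested receptors the groups did not overlap for 14, beside 15.3% of all genes tested. Of these, shOpn3 was higher in 7, beside 8.03% of all genes, and lower in 7, beside 7.23%. All 5 same-numbered pairs differed in the same direction for 27 of the 42, beside 39.4% of all genes. Each of the 15 called receptors was among these 27, which likewise follows in large part from how they were selected.

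**Figure D1:**
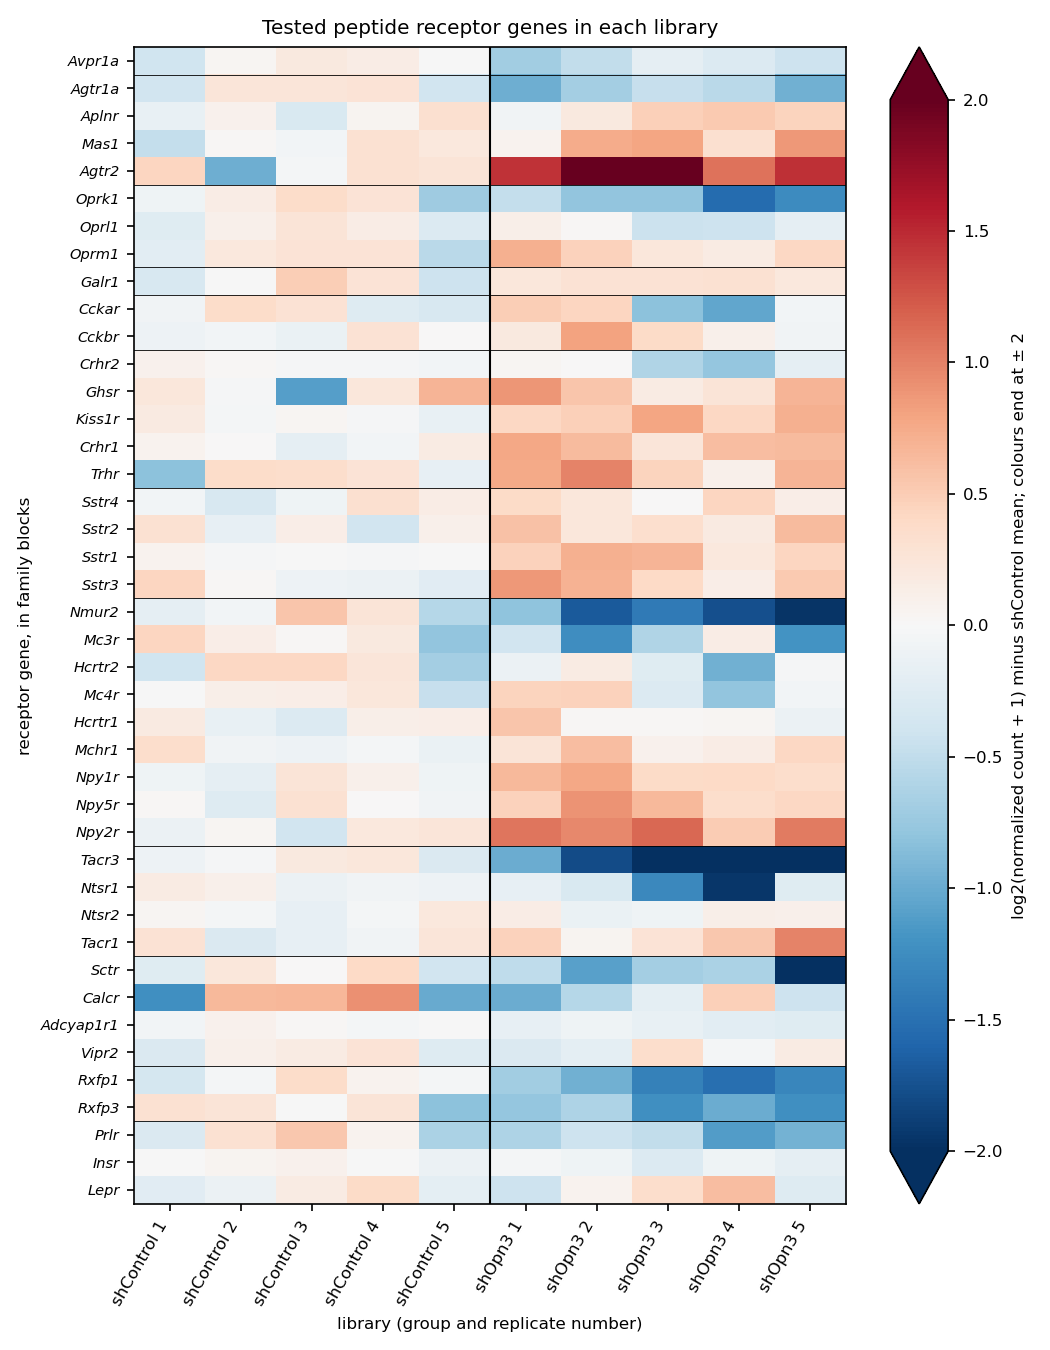
Level of each of the 42 tested receptor genes (rows, in family blocks) in each of the 10 libraries (columns), as log2(normalized count + 1) minus the mean of the 5 shControl libraries; colours end at 2 in either direction. Tacr3 and Nmur2 are blue in all 5 shOpn3 libraries and Agtr2 is red in all 5, while Calcr differs among the shControl libraries themselves.

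The shControl libraries were not alike for every receptor. Calcr, the calcitonin receptor, had 950.1, 3473, 3506, 4200.2 and 1102 normalized counts in shControl replicates 1 to 5, so that replicates 1 and 5 lay far below the other shControl libraries. Pmch, the precursor of melanin-concentrating hormone, which is made in the neighbouring lateral hypothalamus, had 966, 134, 64.3, 106 and 848 in the same libraries. Here replicates 1 and 5 lay far above the others. Without the libraries numbered 1 and 5 in both groups (3 against 3 left) limma called 16 receptors, 5 higher and 11 lower, an exclusion chosen after the data had been seen. That fit called 22.0% of the 15601 genes it tested, 1721 as higher and 1704 (10.9%) as lower. Npy1r, Npy5r, Kiss1r and Sstr3 were not called there, and Aplnr, Oprl1, Ntsr1, Sctr and Calcr were.

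The receptors for the nucleus's own hormones came first. Vasopressin acts on the V1a, V1b and V2 receptors (Avpr1a, Avpr1b and Avpr2) and oxytocin on Oxtr, and magnocellular dendrites release both hormones inside the nucleus. Avpr1a (ENSRNOG00000004400) had 56.1, 76.3, 84.7, 82.4 and 73.8 normalized counts in shControl replicates 1 to 5 and 45.1, 52.0, 65.4, 60.9 and 55.5 in shOpn3 replicates 1 to 5. Each of the 5 pairs had less in shOpn3, but the groups overlapped. Its log2 fold change of -0.41 (SE 0.165) did not pass (limma adjusted p = 0.105), while it passed with the replicate numbers entered as a block (limma adjusted p = 0.0382), after quantile normalization (log2 fold change -0.56, limma adjusted p = 0.0398) and without shControl replicate 1 (-0.51, limma adjusted p = 0.0444).

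The other receptors of vasopressin and oxytocin were below the level for testing. Oxtr had 4 to 25 reads in a library, with 25.5, 5.09, 6.12, 10.3 and 9.49 normalized counts in the shControl libraries and 16.3, 4.25, 9.35, 8.69 and 4.11 in shOpn3. Avpr1b had 0 to 10 reads. Avpr2, which acts mainly in the kidney, had 0 reads in all 10 libraries. For a single library taken alone, a count of 0 allows an expected number of up to 3 reads. Whether the counting could assign reads to the row of Avpr2 is not known here. Transcripts of both hormones fell in the same nuclei. Avp had 32813 to 102261 normalized counts in the shControl libraries and 4619 to 20888 in shOpn3 (log2 difference -2.35 with SE 0.426, limma adjusted p = 0.00269), and Oxt had 16742 to 56716 and 3810.4 to 9739 (-2.21, SE 0.328, limma adjusted p = 9.15e-04).

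Tacr3, the neurokinin 3 receptor for the tachykinin neurokinin B, had the largest change of any receptor tested. Magnocellular vasopressin neurons are known to carry it. Tacr3 (ENSRNOG00000009372) had 2197, 2305, 2683, 2744 and 1918 normalized counts in shControl replicates 1 to 5 and 1174, 682, 377, 458 and 386 in shOpn3 replicates 1 to 5. The highest shOpn3 library, replicate 1, lay well below the lowest shControl library. The mean fell from 2369 ± 345 to 615 ± 336 (SD, n = 5 each), which left 26.0% of the control mean, and the log2 value fell by 2.08 (SE 0.269, limma adjusted p = 4.81e-04).

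Of the related tachykinin receptors, Tacr2 was higher and Tacr1 was not called. Tacr1, the substance P receptor, had 155, 104, 113, 121 and 151 in shControl and 175, 133, 153, 184 and 255 in shOpn3, higher in 5 of 5 pairs (log2 difference 0.46 with SE 0.183, limma adjusted p = 0.102, with the block 0.0184). Tacr2, the neurokinin A receptor, which was read from a list of further peptide receptors, rose from 12.2 ± 4.42 to 28.0 ± 7.34 (SD, n = 5 each). The log2 difference was 1.16, with SE 0.288 and a limma adjusted p of 0.0144. Of the precursors, Tac3, which gives neurokinin B, rose from 168 ± 31.8 to 291 ± 92.9 (SD, n = 5 each). The log2 difference was 0.75, with SE 0.205 and a limma adjusted p of 0.0231. Ligand and receptor transcripts of neurokinin B thus moved in opposite directions. Tac1, the precursor of substance P, had 754 to 2052 in shControl and 766 to 1141 in shOpn3 and was not called (limma adjusted p = 0.314).

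Neither neurotensin receptor was called. Ntsr1, the high-affinity receptor of neurons, had 323, 309, 265, 274 and 268 in shControl and 257, 232, 117, 73.4 and 243 in shOpn3. All shOpn3 libraries lay below all shControl libraries, with replicates 3 and 4 lowest. The log2 fold change of -0.79 (SE 0.305) did not pass (limma adjusted p = 0.0943) and passed with the block (0.0405). Ntsr2, the low-affinity receptor found largely on astrocytes, had 2407 to 3136 and 2471 to 2992 (log2 difference 0.03 with SE 0.0874, limma adjusted p = 0.851).

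The relaxin family receptors both fell. Rxfp1 binds relaxin, a hormone of pregnancy that stimulates vasopressin and oxytocin release, and Rxfp3 binds relaxin-3, a brain peptide. Rxfp1 (ENSRNOG00000024120) had 845, 1056, 1394, 1130.1 and 1049 normalized counts in the shControl libraries and 668, 558, 422, 379 and 435 in shOpn3, with no overlap. It fell by 1.16 in log2 units (SE 0.165, limma adjusted p = 7.42e-04), to 45.0% of the control mean. Rxfp1 overlaps a long non-coding RNA in RefSeq, and whether reads were counted by strand is not known here. Rxfp3 (ENSRNOG00000023126) had 548, 528, 439, 529.9 and 250.0 in shControl and 258, 288, 188, 221 and 189 in shOpn3. Only shControl replicate 5 lay inside the range of the shOpn3 libraries. Rxfp3 fell by 0.97 (SE 0.213, limma adjusted p = 0.00774). Rln3, the relaxin-3 precursor, had at most 3 reads in any library.

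Nmur2, the brain receptor of neuromedin U and neuromedin S, showed the next largest fall after Tacr3. Nmur2 (ENSRNOG00000014081) had 151, 165, 253, 206 and 115 normalized counts in the shControl libraries and 97.9, 53.1, 63.5, 50.2 and 43.1 in shOpn3. The groups did not overlap, and shOpn3 replicate 1 was the highest of its group, as for Tacr3 and Rxfp1. Nmur2 fell by 1.52 (SE 0.249, limma adjusted p = 0.00149), which left 34.6% of the control mean. It overlaps a long non-coding RNA in RefSeq, and whether reads were counted by strand is not given in the sources used here.

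The stretches just before the annotated starts of Tacr3 and Nmur2 are shown because these receptors fell most. They come from RefSeq on build GRCr8, cover 250 bases before the start and are read 5′ to 3′ on the strand of the gene (Tacr3 chr2:225940247-225940496, + strand; Nmur2 chr10:40682680-40682929, - strand). Capitals mark matches on either strand to any of 7 motifs, namely TGACGTCA (the CRE), TGANTCA (the AP-1 motif), ATGCAAAT (the octamer), TTCNNNGAA (a STAT-type motif), CCAAT (the CCAAT box), GGGCGG (the GC box) and TATAAA (the TATA box). No 2 matches overlap in the windows shown.
Tacr3: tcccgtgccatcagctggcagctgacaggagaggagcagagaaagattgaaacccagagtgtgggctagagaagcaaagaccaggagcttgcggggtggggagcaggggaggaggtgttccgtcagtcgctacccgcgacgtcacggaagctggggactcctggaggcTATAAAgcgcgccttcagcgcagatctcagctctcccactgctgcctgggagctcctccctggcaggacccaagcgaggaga
Nmur2: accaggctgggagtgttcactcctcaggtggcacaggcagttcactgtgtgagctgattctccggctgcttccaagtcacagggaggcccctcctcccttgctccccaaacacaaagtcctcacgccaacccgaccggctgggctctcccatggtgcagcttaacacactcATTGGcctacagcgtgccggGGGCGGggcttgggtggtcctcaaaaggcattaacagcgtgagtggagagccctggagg

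Tacr3 held a TATAAA and Nmur2 a CCAAT, written as ATTGG on this strand, and a GC box. Of all 33469 windows of this length, 12.9% held TATAAA, 34.0% CCAAT and 30.5% the GC box. A match is a description of the letters and not of binding. The windows of both genes were rich in G and C, at 62.0% and 61.2%, beside a median of 51.2% over all windows.

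All 3 neuropeptide Y receptors on the list rose. Y1, Y2 and Y5 (Npy1r, Npy2r and Npy5r) act through Gi and commonly dampen firing or transmitter release. Npy2r (ENSRNOG00000049213), the subtype known from nerve endings, had 136, 153, 113, 171 and 175 normalized counts in the shControl libraries and 313, 289, 329.9, 211 and 306 in shOpn3, with no overlap. It rose by 0.95 in log2 units (SE 0.158, limma adjusted p = 0.00168), to 194% of the control mean. Npy1r (ENSRNOG00000014149) had 416, 389.7, 528, 473 and 417 in shControl and 692, 759, 578, 585 and 566 in shOpn3, all above the controls (log2 difference 0.51 with SE 0.116, limma adjusted p = 0.00866).

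Npy5r (ENSRNOG00000014172) completed this group. It had 99.9, 81.4, 120.4, 98.3 and 92.8 in shControl and 135, 184, 153, 125 and 130.5 in shOpn3, again without overlap (log2 difference 0.55 with SE 0.149, limma adjusted p = 0.0216). Its call was lost without shControl replicate 2 (limma adjusted p = 0.0591), without shOpn3 replicate 2 (0.0507), without shOpn3 replicate 3 (0.0592) and after quantile normalization (0.102). Npy itself was listed at 0 in all 10 libraries. Whether the counting could assign reads to that row is not known here, so the value does not show that the ligand is absent. Npy4r, a further receptor of the family, had 8.14 to 24.3 and 10.6 to 28.0 (log2 difference 0.15 with SE 0.331, limma adjusted p = 0.795). Npy1r and Npy5r are neighbours on chromosome 16 with no coding gene between them, and they are read in opposite directions away from each other.

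The windows before these genes are shown because all 3 receptors rose (RefSeq, GRCr8, 250 bases, 5′ to 3′, capitals as above: Npy1r chr16:27813388-27813637, - strand; Npy5r chr16:27821805-27822054, + strand; Npy2r chr2:170203101-170203350, - strand).
Npy1r: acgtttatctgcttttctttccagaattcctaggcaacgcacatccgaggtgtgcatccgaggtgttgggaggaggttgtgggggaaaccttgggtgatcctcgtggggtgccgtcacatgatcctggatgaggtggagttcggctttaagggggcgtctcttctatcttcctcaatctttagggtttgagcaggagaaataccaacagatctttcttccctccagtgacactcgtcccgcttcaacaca
Npy5r: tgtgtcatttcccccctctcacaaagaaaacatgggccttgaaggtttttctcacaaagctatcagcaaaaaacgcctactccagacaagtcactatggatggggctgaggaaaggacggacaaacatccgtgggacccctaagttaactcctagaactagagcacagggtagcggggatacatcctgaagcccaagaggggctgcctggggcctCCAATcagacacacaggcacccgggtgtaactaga
Npy2r: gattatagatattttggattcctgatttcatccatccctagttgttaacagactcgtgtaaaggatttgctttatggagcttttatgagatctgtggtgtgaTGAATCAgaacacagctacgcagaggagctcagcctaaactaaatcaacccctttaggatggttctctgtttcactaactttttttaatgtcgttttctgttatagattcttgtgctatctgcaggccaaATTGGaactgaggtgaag

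Npy5r and Npy2r held a CCAAT, Npy2r in addition an AP-1 motif, and Npy1r none of the 7 motifs. Over the 8 receptors that rose, 4 windows held CCAAT (Agtr2, Npy2r, Npy5r and Sstr1) and 1 the AP-1 motif, beside 34.0% and 6.34% of all windows. Over the 5 receptors that fell and had a window, 1 held CCAAT and 0 the AP-1 motif. Of the same 5, 3 held the GC box (Agtr1a, Nmur2 and Rxfp3) and 2 TATAAA (Agtr1a and Tacr3), beside 30.5% and 12.9% of all windows. Of the 8 that rose, 1 held the GC box (Crhr1) and 0 TATAAA. The STAT-type motif was in 1 that fell (Rxfp3) and 0 that rose, beside 7.67% of all windows. The CRE and the octamer were in 0 of either. These counts were not tested. Absence of a match says only that these letters are not in the window.

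**Figure D2:**
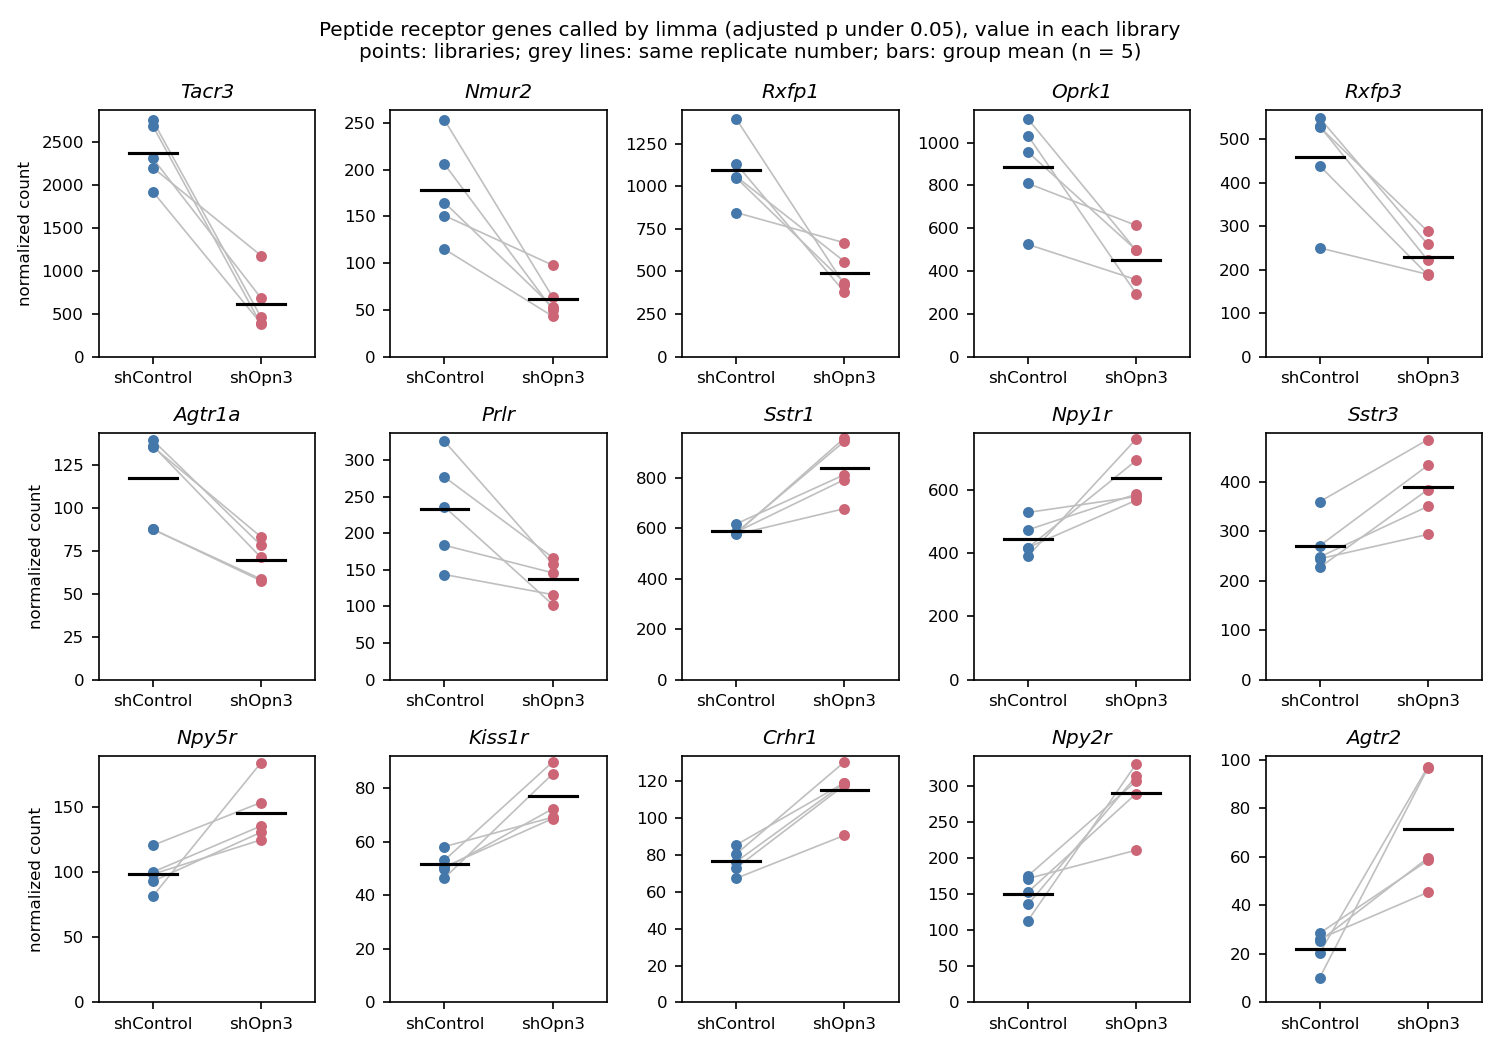
Normalized count (vertical axes, from 0) in each shControl (blue) and shOpn3 (red) library for the 15 called receptor genes, ordered from the largest fall to the largest rise; grey lines join libraries with the same replicate number and black bars are group means of 5. All lines of Tacr3 fall and all lines of Npy2r and Agtr2 rise.

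Other receptors of feeding and arousal were not called. They were the melanocortin receptors Mc3r and Mc4r, the orexin receptors Hcrtr1 and Hcrtr2, and Mchr1, the receptor of melanin-concentrating hormone. Mc3r had 53.0, 42.7, 39.8, 44.9 and 22.2 in shControl and 29.7, 15.9, 25.2, 43.5 and 16.4 in shOpn3, lower in 5 of 5 pairs (log2 difference -0.66 with SE 0.308, limma adjusted p = 0.166). Mc4r had 109.7 to 177 and 87.9 to 209, the latter being the wider range (log2 fold change -0.04, SE 0.234). Hcrtr2 had a log2 fold change of -0.24 (SE 0.261), Hcrtr1 of 0.11 (SE 0.162) and Mchr1 of 0.30 (SE 0.138), with limma adjusted p of 0.579, 0.697 and 0.149.

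The angiotensin receptors changed in opposite directions. Angiotensin II drives thirst and vasopressin release through the AT1 receptor, which rats encode in the near copies Agtr1a and Agtr1b, and the AT2 receptor (Agtr2) counteracts many AT1 effects. Agtr1a (ENSRNOG00000018346) had 87.7, 136, 136, 139.5 and 87.6 normalized counts in the shControl libraries and 57.6, 71.2, 83.2, 78.2 and 58.6 in shOpn3. The groups did not overlap, though shOpn3 replicate 3 came close to the lowest controls. Agtr1a fell by 0.73 in log2 units (SE 0.189, limma adjusted p = 0.0185), to 59.4% of the control mean. The call was lost by a narrow margin without shControl replicate 2 (limma adjusted p = 0.0512) or replicate 4 (0.0507), with a log2 fold change of -0.66 in each case. Agtr1b had 0 to 3 reads in a library, and reads that fit both copies cannot be assigned here.

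Agtr2 (ENSRNOG00000050006) had the largest rise of any receptor tested. It had 28.5, 10.2, 20.4, 26.2 and 25.3 normalized counts in the shControl libraries and 58.5, 96.6, 97.2, 45.4 and 59.6 in shOpn3, so that the lowest shOpn3 library, replicate 4, lay above every control. The mean rose from 22.1 ± 7.31 to 71.5 ± 23.9 (SD, n = 5 each), or 323% of the control mean, and the log2 fold change was 1.66 (SE 0.303, limma adjusted p = 0.00279). Its window of 250 bases is shown as that of the largest rise (RefSeq, GRCr8, chrX:116914070-116914319, + strand, capitals as above), and it was poor in G and C (38.0%).
Agtr2: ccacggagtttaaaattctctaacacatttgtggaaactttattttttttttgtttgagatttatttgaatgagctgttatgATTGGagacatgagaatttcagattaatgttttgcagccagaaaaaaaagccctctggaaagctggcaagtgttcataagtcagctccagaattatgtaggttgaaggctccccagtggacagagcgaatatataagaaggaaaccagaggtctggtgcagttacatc

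The remaining receptors of this group were not called. Mas1, the receptor of angiotensin (1-7), had 28.5, 40.7, 38.8, 49.6 and 46.4 in shControl and 42.2, 68.0, 70.1, 50.2 and 74.0 in shOpn3, higher in 5 of 5 pairs (log2 difference 0.56 with SE 0.211, limma adjusted p = 0.0881). It passed with the block (0.0365) and without shOpn3 replicate 1 (log2 fold change 0.68, limma adjusted p = 0.0373). Aplnr, the apelin receptor, whose ligand opposes vasopressin, had 1409, 1654, 1263, 1617 and 1956 in shControl and 1483, 1787, 2171, 2254 and 2129.7 in shOpn3 and was also higher in 5 of 5 pairs (log2 difference 0.31 with SE 0.138, limma adjusted p = 0.138). It passed without shOpn3 replicate 1 (0.41, limma adjusted p = 0.0390). The precursors Agt and Apln had log2 fold changes of -0.40 (SE 0.220) and -0.21 (SE 0.0866) and were not called (limma adjusted p = 0.242 and 0.115). With the block both passed, as lower (0.00562 and 0.0305).

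Of the opioid receptors the kappa receptor fell. Oprk1 binds dynorphin, which vasopressin neurons release together with their hormone and which restrains their firing. Oprk1 (ENSRNOG00000007647) had 809, 955, 1110.3, 1033 and 524 normalized counts in the shControl libraries and 613, 498, 496, 295 and 359.6 in shOpn3. They overlapped in 1 place, where shControl replicate 5 was lower than shOpn3 replicate 1. Oprk1 fell by 0.97 (SE 0.228, limma adjusted p = 0.0110), to 51.0% of the control mean, and Pdyn, the dynorphin precursor, fell by 1.44 (SE 0.319, limma adjusted p = 0.00802).

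The mu receptor Oprm1, the main target of morphine, had 267, 359, 371, 373 and 211 in shControl and 508, 427, 359.8, 346 and 412 in shOpn3 (log2 difference 0.40 with SE 0.172, limma adjusted p = 0.134). It was higher in 3 of 5 pairs, and it overlaps Ipcef1 in RefSeq. Oprl1, the nociceptin receptor, had 2032 to 2947 and 1831 to 2682 (log2 difference -0.18 with SE 0.137, limma adjusted p = 0.417). The delta receptor Oprd1 was below the level for testing, with 3 to 21 reads. The precursors Penk and Pnoc had log2 fold changes of 0.01 (SE 0.200) and -0.36 (SE 0.152) and were not called (limma adjusted p = 0.977 and 0.128).

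The galanin and cholecystokinin receptors were not called, although their ligands were. Galanin and cholecystokinin are both made in magnocellular neurons. Galr1 (ENSRNOG00000016654), a Gi-coupled galanin receptor, had 463, 576, 811, 698 and 433 normalized counts in the shControl libraries and 675, 709, 706, 713 and 671 in shOpn3. The shOpn3 libraries lay close together inside the wide range of the controls (log2 difference 0.26 with SE 0.155, limma adjusted p = 0.274). Galr3 had 4 to 15 reads and was not tested. Gal fell by 1.35 (SE 0.195, limma adjusted p = 7.96e-04).

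Cckar and Cckbr, the CCK-A and CCK-B receptors, had log2 fold changes of -0.20 and 0.29, with limma adjusted p of 0.689 and 0.239. Cckar ranged over 43.5 to 127 in shOpn3 and 71.7 to 117 in shControl. Cck had 213, 69.2, 69.4, 62.7 and 209.9 normalized counts in the shControl libraries and 508, 424, 379, 354 and 468 in shOpn3. All shOpn3 libraries were higher, and within shControl replicates 1 and 5 stood above the rest (log2 difference 1.98 with SE 0.346, limma adjusted p = 0.00217).

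Among receptors of hypothalamic releasing hormones and ghrelin, Crhr1 and Kiss1r rose. Crhr1 is the main brain receptor of corticotropin-releasing hormone, and Kiss1r binds kisspeptin, the driver of gonadotropin-releasing hormone neurons. Crhr1 (ENSRNOG00000004900) had 80.5, 76.3, 67.4, 73.0 and 85.5 normalized counts in the shControl libraries and 130.5, 119, 90.6, 118 and 119 in shOpn3, with no overlap (log2 difference 0.58 with SE 0.138, limma adjusted p = 0.0116). Kiss1r (ENSRNOG00000011954) had 58.1, 49.9, 53.1, 50.6 and 46.4 in shControl and 69.1, 72.2, 89.7, 68.6 and 85.3 in shOpn3, also with no overlap (log2 difference 0.56 with SE 0.144, limma adjusted p = 0.0168). Without shOpn3 replicate 3 the adjusted p of Kiss1r was 0.0546, and after quantile normalization it was 0.0801. Crh rose by 0.91 (SE 0.279, limma adjusted p = 0.0383), and Kiss1 was not tested for lack of reads.

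Crhr2, the receptor preferred by urocortins, had 336, 321, 310.2, 309 and 303 in shControl and 325, 316, 207, 184 and 278 in shOpn3. The controls were close together, and shOpn3 replicates 3 and 4 lay lowest (log2 difference -0.30 with SE 0.157, limma adjusted p = 0.210). Trhr, a receptor of thyrotropin-releasing hormone, had 213, 484, 483, 453 and 335 in shControl and 634, 754, 515, 405 and 604 in shOpn3 and was higher in 4 of 5 pairs (log2 difference 0.60 with SE 0.232, limma adjusted p = 0.0960). Its ligand precursor Trh fell by 1.68 (SE 0.236, limma adjusted p = 7.14e-04). Ghsr, the ghrelin receptor, had 9.18 to 33.8 and 23.4 to 39.3 and was not called (log2 difference 0.51 with SE 0.307, limma adjusted p = 0.281).

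The 4 somatostatin receptors all had higher means in shOpn3, and 2 of them were called. Somatostatin receptors act through Gi and inhibit secretion and firing. Sstr1 (ENSRNOG00000048145) had 617, 579, 583, 575 and 584 normalized counts in shControl, a narrow range, and 812, 957, 944, 677 and 792 in shOpn3, all higher (log2 difference 0.50 with SE 0.0994, limma adjusted p = 0.00464). Sstr3 (ENSRNOG00000007332), which is known from neuronal cilia, had 359.9, 271, 248, 244 and 227 in shControl and 485, 433, 350.4, 294 and 384 in shOpn3. It overlapped between groups through shControl replicate 1 but was higher in 5 of 5 pairs (log2 difference 0.53 with SE 0.158, limma adjusted p = 0.0359). That call was lost without any single one of shControl replicates 2 to 5 or of shOpn3 replicates 1, 2, 3 and 5 (limma adjusted p from 0.0579 to 0.0805), and after quantile normalization (0.0574).

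Sstr2 had 119.8 to 194 in shControl and 177 to 242 in shOpn3, higher in 5 of 5 pairs (log2 difference 0.39 with SE 0.153, limma adjusted p = 0.0968, with the block 0.0187). It overlaps Slc39a11 in RefSeq. Sstr4 had 98.7 to 154 and 124 to 168 (log2 difference 0.24 with SE 0.147, limma adjusted p = 0.296). The fifth member, Sstr5, was read from the list of further receptors and fell from 23.2 ± 8.07 to 10.6 ± 2.45 (SD, n = 5 each). The log2 difference was -1.02, with SE 0.267 and a limma adjusted p of 0.0186. Sst, the ligand precursor, had 101 to 346 and 191 to 541 and was not called (log2 difference 0.80 with SE 0.357, limma adjusted p = 0.146, with the block 0.00645).

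None of the 4 tested secretin-like receptors was called by limma in the model with the group alone. These receptors bind larger peptides and act mainly through Gs. Adcyap1r1 (ENSRNOG00000012098), the PACAP receptor, had 20472, 22445, 21659.8, 20606 and 21170.1 normalized counts in the shControl libraries and 19013, 19922, 19115, 18310.2 and 17942 in shOpn3. The groups did not overlap, but the change was small (log2 difference -0.17 with SE 0.0648, limma adjusted p = 0.0847). The authors' deposited table gave it a log2 fold change of -0.17 and an adjusted p of 0.00987. Sctr, the receptor of secretin, had 25.5, 35.6, 30.6, 40.3 and 23.2 in shControl and 21.1, 13.8, 18.7, 19.3 and 2.05 in shOpn3, again without overlap, with only 2 reads in shOpn3 replicate 5 (log2 difference -1.25 with SE 0.480, limma adjusted p = 0.0926, with the block 0.0371). Sctr overlaps Tmem37 in RefSeq.

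Calcr (ENSRNOG00000010053) had 1114, 1494, 1941, 3092 and 1667 normalized counts in shOpn3, all within the range of the controls given above. Its log2 fold change was -0.34 (SE 0.424, limma adjusted p = 0.630), and -0.84 (limma adjusted p = 0.0357) without the libraries numbered 1 and 5. Vipr2, a receptor shared by vasoactive intestinal peptide and PACAP, had 121 to 179.8 and 121 to 189 (SE of the log2 fold change 0.163, limma adjusted p = 0.991).

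Of the receptors that cross the membrane once, Prlr fell. The prolactin receptor is known from oxytocin neurons. Prlr (ENSRNOG00000057557) had 184, 277, 326, 236 and 143 normalized counts in the shControl libraries and 146, 167, 158, 102 and 116 in shOpn3, overlapping through shControl replicate 5. It fell by 0.72 (SE 0.221, limma adjusted p = 0.0394), to 59.1% of the control mean. The call was lost without any single one of shControl replicates 2, 3 and 4 or of shOpn3 replicates 1, 3, 4 and 5 (limma adjusted p from 0.0523 to 0.0973), and without the filter on low values (0.0506). Insr, the insulin receptor, had 2171 to 2506 and 1961 to 2293 (log2 difference -0.13 with SE 0.0693, limma adjusted p = 0.213). Lepr, the leptin receptor, which overlaps Leprot in RefSeq, had 280.3 to 429.8 and 247 to 503 (log2 difference 0.07 with SE 0.197, limma adjusted p = 0.840).

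**Figure D3:**
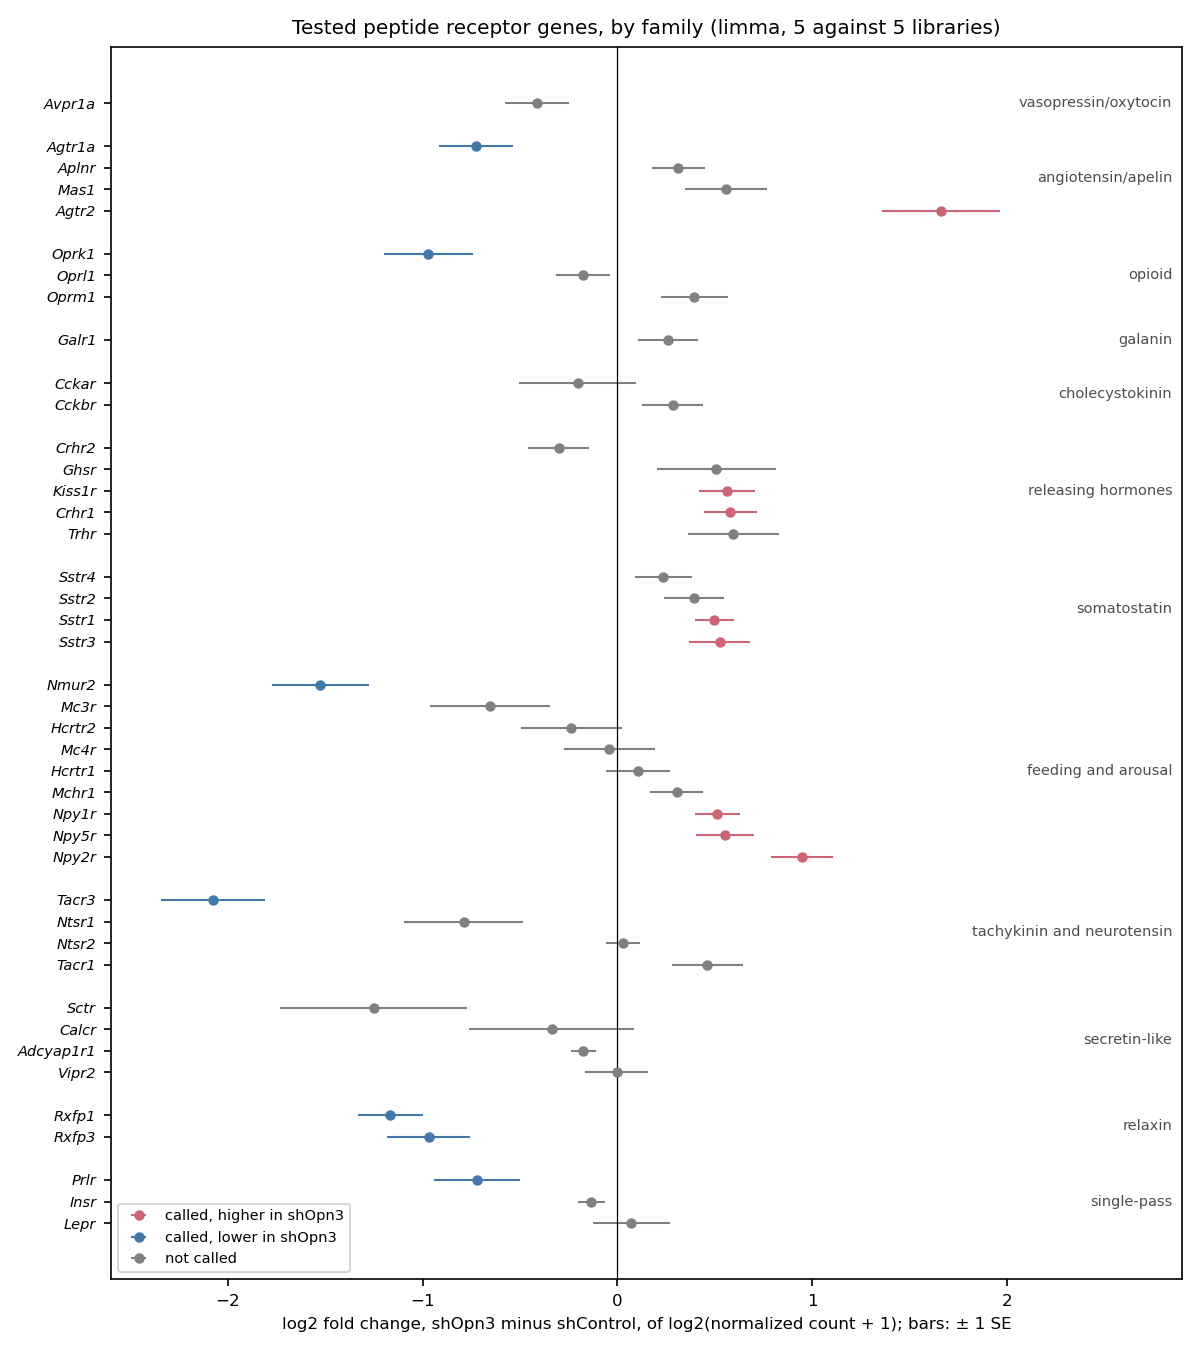
Log2 fold change (shOpn3 minus shControl, horizontal axis, bars of 1 SE) of the 42 tested receptor genes in family blocks, with called genes in red (higher) and blue (lower). Agtr2 at 1.66 and Tacr3 at -2.08 mark the ends of the range, and the Npy receptors lie to the right of 0.

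The tested receptors were also grouped by the G protein through which they mainly act, to be read beside 10.4% of all genes higher and 8.48% lower. Of the Gi receptors, 5 of 14 rose (35.7%: Npy1r, Npy2r, Npy5r, Sstr1 and Sstr3) and 2 fell (14.3%: Oprk1 and Rxfp3), with a median log2 fold change of 0.35. Of 13 Gq receptors 1 rose (7.69%: Kiss1r) and 3 fell (23.1%: Tacr3, Nmur2 and Agtr1a), with a median of -0.20. Of 9 Gs receptors 1 rose (Crhr1) and 1 fell (Rxfp1), or 11.1% each way, with a median of -0.30. The Gs shares and the share of Gq receptors that rose were near those of all genes. Differences between these classes were not tested.

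Receptors with a listed ligand precursor in common were then compared within each library. A ratio of 2 genes in a library does not depend on its scaling, apart from the 1 count added to each value. Mas1 was matched to Agtr1a and Agtr2 through the precursor Agt, but it binds a different angiotensin peptide. The 18 pairs of tested receptors that share a listed precursor within a family were examined. Libraries were permuted between groups (exact and two-sided, on the log2 ratio), with p adjusted over the 18 pairs. This test was added after the values had been seen. The smallest p that 5 against 5 libraries allow is 0.00794. In 3 pairs the ratio differed between the groups, and in 15 it did not pass. The test takes no account of the replicate numbers. Each of the 3 ratios moved in the same direction in 5 of 5 same-numbered pairs, and so did those of Ntsr1 to Ntsr2 (difference -0.82, SE 0.373, exact permutation p = 0.0238, adjusted p = 0.0857) and of Agtr2 to Mas1 (difference 1.10, SE 0.348, with the same exact permutation p-values). An exact test within 5 pairs cannot give a p below 0.0625.

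The angiotensin receptors differed most. The log2 ratio of Agtr1a to Agtr2 was 2.40 ± 0.81 in shControl and 0.01 ± 0.46 in the shOpn3 ones (SD, n = 5 each). The difference was -2.39 (SE 0.417, exact permutation p = 0.00794, adjusted p = 0.0476). Agtr1a was already lower and Agtr2 higher without overlap, so the separation of their ratio and this smallest p were fixed in advance. For this pair the test adds no support. The ratio of Agtr1a to Mas1 differed by -1.28 (SE 0.228) and that of Crhr1 to Crhr2 by 0.88 (SE 0.146), with the same p-values in the exact permutation test. In all 3 pairs the groups did not overlap. Agtr1a and Crhr1 were already called without overlap, and Mas1 and Crhr2 moved the other way in 5 of 5 pairs. The separation of these 2 ratios thus follows in large part from the single genes. Their adjusted p in the exact permutation test passed only because all 3 pairs shared the smallest p, the first pair among them. The adjusted p of all 3 pairs rose to between 0.0714 and 0.0952 (exact permutation test) without shOpn3 replicate 2, 3 or 5. The differences there ran from -2.38 to 0.95.

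No ratio within the neuropeptide Y or somatostatin receptors passed. That of Npy1r to Npy5r was 2.16 ± 0.09 in shControl and 2.13 ± 0.17 in the shOpn3 ones (SD, n = 5 each; difference -0.04, SE 0.0847, exact permutation test, adjusted p = 0.681). The ratio of Sstr1 to Sstr3 differed by -0.03 (SE 0.150, exact permutation test, adjusted p = 0.849). Npy1r to Npy2r gave a difference of -0.44 (SE 0.215, exact permutation test, adjusted p = 0.245). A p above the threshold does not show that such receptors changed alike.

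**Figure D4:**
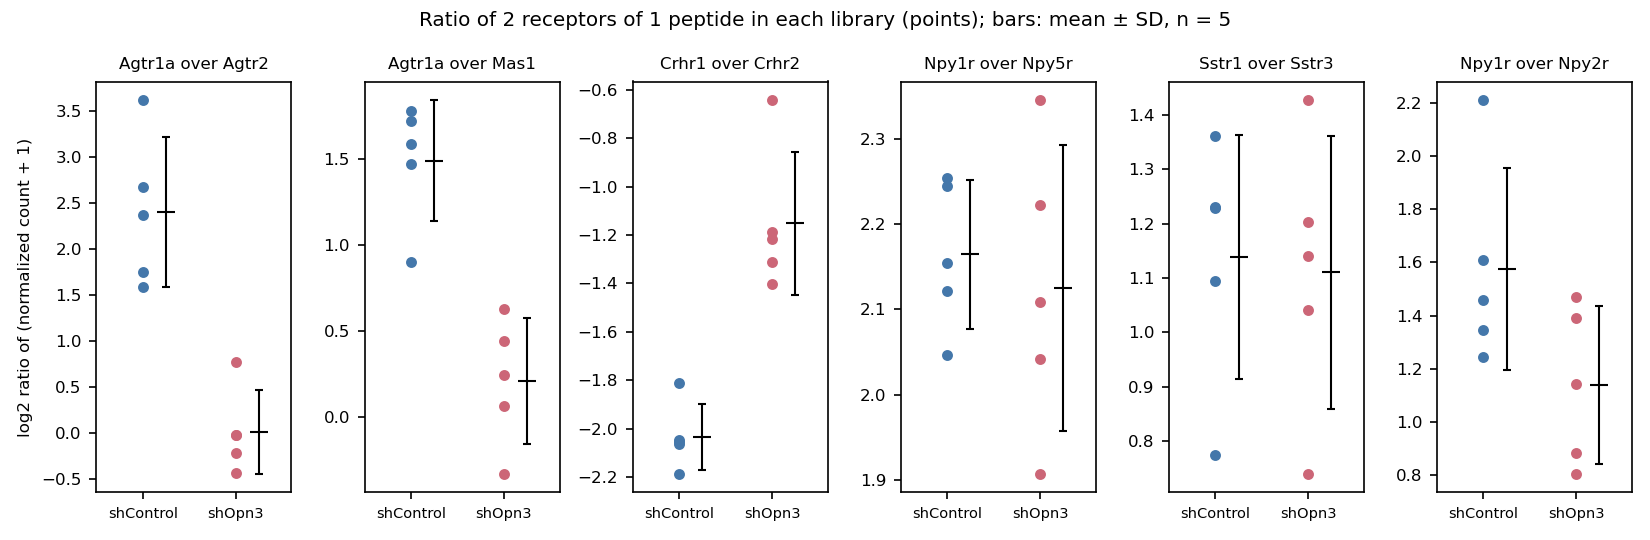
Log2 ratio of 2 receptors that share a listed ligand precursor, in each library (vertical axes, each with its own range). Points are the 5 shControl (blue) and 5 shOpn3 (red) libraries, and bars are mean and SD. The groups separate for Agtr1a over Agtr2, Agtr1a over Mas1 and Crhr1 over Crhr2 and overlap for the other 3 pairs.

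The ligands of these receptors were read from the same fit. Of 30 listed precursor genes 28 were in the table and 18 were tested, of which 3 were higher (Cck, Crh and Tac3) and 5 lower (Avp, Oxt, Trh, Pdyn and Gal), with a median log2 fold change of -0.28. The called ones were 44.4% of those tested, beside 18.8% of all genes. With the replicate block 5 were higher and 7 lower, beside 15.1% and 15.2% of all genes. This list includes peptides that were already known to fall in these libraries when it was chosen. For Oprk1 with Pdyn and Crhr1 with Crh, receptor and ligand were called in the same direction. For Tacr3 with Tac3 they were called in opposite directions. The receptors of the other called ligands were not called or were not tested.

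Among 35 further peptide receptors 34 were in the table and 25 were tested, of which 8 rose (32.0%, beside 10.4% of all genes) and 4 fell (16.0%, beside 8.48%), with a median log2 fold change of 0.24. Glp1r, the receptor of glucagon-like peptide 1, had 465, 421, 438, 439 and 251 normalized counts in the shControl libraries and 213, 158, 139, 136 and 80.1 in shOpn3, with no overlap, and fell to 36.1% of the control mean (limma adjusted p = 0.00139). Pth2r, the receptor of the tuberoinfundibular peptide, had 40.8, 51.9, 50.0, 50.6 and 76.0 in shControl and 95.0, 132, 111, 106 and 131 in shOpn3 and rose by 1.10 (SE 0.178, limma adjusted p = 0.00142). Nmbr, the neuromedin B receptor, rose by 1.06 (SE 0.229, limma adjusted p = 0.00699), and Tshr, the thyrotropin receptor, by 0.93 (SE 0.268, limma adjusted p = 0.0294). The count of 12 called fell to 7 without shControl replicate 1 and to 6 without shOpn3 replicate 3. The call of Tshr was lost without any single one of shControl replicates 1, 4 and 5 and shOpn3 replicates 3, 4 and 5 (limma adjusted p from 0.0563 to 0.0824), and after quantile normalization (0.0686).

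Of 20 tested genes for proteins that modify or end receptor signals 2 rose and 2 fell, a share near the 18.8% of all genes called, with a median log2 fold change of 0.01. Ramp3, a partner protein that changes which peptides calcitonin-type receptors bind, had 223 ± 37.1 normalized counts in the shControl libraries and 71.5 ± 22.3 in the shOpn3 ones (SD, n = 5 each). All shOpn3 libraries were far lower, and Ramp3 fell by 1.66 (SE 0.197, limma adjusted p = 3.40e-04). Rgs9 fell by 0.61 (SE 0.107), while Rgs14 and Rgs10 rose by 1.58 (SE 0.327) and 0.78 (SE 0.126), with limma adjusted p of 0.00223, 0.00564 and 0.00148. These RGS proteins shorten G protein signals, and Rgs10 is abundant in microglia, whose markers rose in the same libraries. Whether these rises are linked was not tested. The arrestins Arrb1 and Arrb2 had log2 fold changes of 0.21 (SE 0.133) and 0.04 (SE 0.0996) and were not called (limma adjusted p = 0.309 and 0.834). Arrb1 passed with the block (0.0405).

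Blocking on the replicate number, limma called 21 receptors, 11 higher and 10 lower, beside 30.3% of all genes. All 15 receptors called without the block were among them, and the 6 gained were Avpr1a, Mas1, Sstr2, Tacr1, Ntsr1 and Sctr. The authors' deposited table placed 17 of the receptors below 0.05 in adjusted p, namely 8 that rose and 9 that fell, beside 21.3% of all genes with an adjusted p in that table. These were the 15 above and, in addition, Adcyap1r1 and Sctr. Of the 15 called receptors 9 kept their call in all 19 alternative fits, namely Tacr3, Nmur2, Rxfp1, Oprk1, Rxfp3, Agtr2, Npy2r, Crhr1 and Sstr1. After quantile normalization 5 receptors were called higher and 8 lower, against 8 and 7 without it. Of all genes 19.1% were called after it, 10.1% as higher and 9.0% as lower.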

How the data were processed

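RNA sequencing covered 10 supraoptic nuclei, 5 in each group, in 1 deposited table. Per the submitters' processing notes, FastQC, STAR, featureCounts and DESeq2 were used; versions, genome build, annotation and strand setting are not given in the sources used here. Per the file headers and values, the authors deposited a signal per gene, read counts divided by 1 size factor per library. Whole reads were recovered for 100% of values in each library (tolerance 0.001 of a read). Per the file headers, the same table gives the authors' comparison as a log2 fold change with its standard error, a Wald score, a p-value and an adjusted p-value; values of it are named where printed.

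Values were analysed as log2(normalized count + 1) for genes with a mean of at least 10, with limma 3.58.1 (lmFit, eBayes with trend, R 4.3.3), the group as only term, and two-sided Benjamini-Hochberg adjusted p-values over all 15597 genes (threshold 0.05). The added count shrinks the fold changes of low genes. For genes that vary between libraries they can still exceed those of edgeR, as for Sctr (-1.25, against -1.05 in edgeR). Of these genes 2940 were called, 1618 higher and 1322 lower. edgeR 4.0.16 and DESeq2 1.42.0 were run on the recovered reads as alternatives, beside other pseudocounts, no filter, quantile normalization, a replicate block and leaving out libraries. On simulated data with 200 changed genes among 15541, limma recovered 93% of changes of 1 and 100% of changes of 2 (log2). Every simulated gene had the same setting for spread between libraries, and replicate numbers had no effect. These shares therefore do not carry over to genes with a wide spread. Sctr, at -1.25 (SE 0.480), was not called.

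Deviations of same-numbered libraries from their group means correlated in 5 of 5 pairs (r from 0.12 to 0.44; other pairings, median -0.21, range -0.45 to 0.36). Per the labels each rat gave a nucleus to both groups, though no label says that equal numbers mark 1 rat or that a group holds 5 rats, so p-values measure the spread between these nuclei; the numbers were taken to pair the libraries.

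The receptors, lists, ratio tests and the exclusion of numbers 1 and 5 were chosen with earlier results of these data known. Full statistics are given for called receptors and for Avpr1a, Avpr1b, Oxtr, Agtr1a, Oprk1 and Galr1 where tested, for up to 6 called genes of each other list by size of change, and for Opn3, Avp and Oxt; other genes were named as ligands or relatives of these. Of the 48 receptors 48 matched RefSeq (GRCr8) by symbol, 41 had a promoter window, and 12 overlapped another gene; coding sequences were not used here.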

Additional observations from a re-analysis of the deposited data

Results flagged for a closer look

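Of 102 group values examined (total reads, the receptors, Opn3, Avp and Oxt, by group, where any library was above 0), 7 had a library set off from the nearest other by over 0.71 of the range of its group, where chance flags about 1 in 20, or 5.1. In shControl replicate 1, Oxtr stood at 25.5 normalized counts (next 10.3), Sstr1 at 617 (next 584), Mchr1 at 214 (next 163) and Oxt at 56716 (next 21354). In shOpn3 replicate 1, Hcrtr1 stood at 127 (next 87.9). In shControl replicate 5, Avpr1b stood at 10.5 (next 1.87), and in shControl replicate 4, Agtr1b stood at 0.936, which is 1 read, with 0 in the other controls. Of the 7 flagged values 5 came from libraries with the number 1, and 4 of these from shControl replicate 1 alone. For Avpr1b, Agtr1b and Oxtr these values rest on at most 25 reads.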

How the results depend on the processing

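Of 285 values that the 15 called receptors took in 19 alternative fits, 256 kept direction and call and 29 only the direction, all in Agtr1a, Kiss1r, Sstr3, Npy1r, Npy5r and Prlr. Of 513 values of the 27 receptors not called, 23 passed the threshold. No call reversed. With the replicate block limma called 4726 genes and edgeR with the same block 4777, against 2940; it added 6 receptors and ended no receptor's call. edgeR with the replicate block called 13 ligand genes against 8. Without numbers 1 and 5 in both groups, Npy1r (adjusted p 0.0581), Npy5r (0.0626), Kiss1r (0.0529) and Sstr3 (0.0543) lost their calls, Aplnr, Oprl1, Ntsr1, Sctr and Calcr gained one, and 7 accessory genes were called against 4; the cause was not tested. Leaving out each library in turn gave 11 to 16 receptors, 1973 to 3057 genes (lowest without shOpn3 replicate 3), 6 to 9 ligands, 6 to 11 further receptors and 4 to 5 accessory genes; the difference in total reads lay between -1726073 and -87102. Of 216 values of the receptor ratios, 205 kept direction and call. Depth limits Avpr1b, Avpr2, Agtr1b, Oxtr, Oprd1 and Galr3, with at most 25 reads in a library.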

Other observations

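Libraries 1 and 5 of shControl stood apart from the other controls for some peptide system genes that the labels give no reason for. Agt, the angiotensinogen precursor, had 23693, 13348, 11886, 12528 and 21909 normalized counts in shControl replicates 1 to 5 and 16702, 10963, 9069, 10965 and 14281 in shOpn3. Rgs14 had 229, 87.5, 78.6, 110.5 and 303 in shControl, with replicates 1 and 5 highest, and 492, 393, 401, 392 and 422 in shOpn3. Tac1 had 754, 1803, 2052, 1657 and 809 in shControl, with replicates 1 and 5 lowest, and 859, 1131, 1141, 1026 and 766 in shOpn3. In shOpn3 too, replicates 1 and 5 were highest for Agt and Rgs14 and lowest for Tac1. For Calcr and Pmch, shOpn3 replicate 1 lay at the same end as in shControl, but replicate 5 did not. In shOpn3 replicate 1, the falling receptors Tacr3 (1174), Nmur2 (97.9), Rxfp1 (668) and Oprk1 (613) were each the highest of their group.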
